A study of Homo sapiens with 2 samples.

Results

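Class I histone deacetylases and their corepressor partners were examined as 8 genes, HDAC1, HDAC2, HDAC3, HDAC8, NCOR1, SIN3A, SIN3B and RCOR1, taken by name from 19866 protein-coding genes. The question asked of each gene was where histone H3 lactylated at lysine 18 (H3K18la) lay at its ends, in its body and within 50000 bp. The cells were H1299, an established human non-small cell lung cancer line, with no treatment or genotype named in the labels. The series has 2 libraries, 1 from chromatin immunoprecipitated with an anti-H3K18la antibody and 1 input. The files hold 1 peak list, that of the anti-H3K18la library, which had 28695 broad peaks with a median fold enrichment of 4.36 over the peak caller's local background. Its peak names carry the prefix NC, a term found in none of the labels, and its place with that library rests on the sample record it was deposited under. Each group had 1 library, so no difference below has a replicate error or a test, and depth is unknown. The labels name input where the series design names IgG, and which of these served as control of the peak calls is not given in the sources used here.

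Histone deacetylases take acyl groups off lysines, and the class I enzymes HDAC1, HDAC2 and HDAC3 are also known to take lactyl groups off histones. They work mostly in large complexes, in which HDAC1 and HDAC2 are held by scaffolds such as SIN3A, SIN3B and RCOR1 (CoREST), and HDAC3 is held and activated by NCOR1. HDAC8 acts without such a scaffold and is best known for deacetylating cohesin. A peak here reports the mark on the chromatin of a gene, and neither its transcription nor the activity of the enzyme it encodes was measured.

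The stretches just before the start of the HDAC genes are shown because peaks cover them at HDAC1, HDAC2 and HDAC3 and none does at HDAC8. They are RefSeq sequences of GRCh38.p14, read 5′ to 3′ on the gene's strand and ending at the last base before the start, with each CpG dinucleotide in capitals. For HDAC1 it is chr1:32291833-32292082 on the plus strand, for HDAC2 chr6:113971149-113971398, for HDAC3 chr5:141636850-141636996 and for HDAC8 chrX:72572844-72573093, the last 3 on the minus strand. The HDAC3 sequence is the whole 147 bp between its start and that of its divergent neighbour RELL2, and the others are 250 bp.
HDAC1: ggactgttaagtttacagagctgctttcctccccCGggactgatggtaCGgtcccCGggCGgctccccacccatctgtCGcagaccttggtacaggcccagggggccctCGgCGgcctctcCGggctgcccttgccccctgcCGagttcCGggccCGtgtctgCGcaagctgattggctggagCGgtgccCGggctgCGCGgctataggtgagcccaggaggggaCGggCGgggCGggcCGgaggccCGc
HDAC2: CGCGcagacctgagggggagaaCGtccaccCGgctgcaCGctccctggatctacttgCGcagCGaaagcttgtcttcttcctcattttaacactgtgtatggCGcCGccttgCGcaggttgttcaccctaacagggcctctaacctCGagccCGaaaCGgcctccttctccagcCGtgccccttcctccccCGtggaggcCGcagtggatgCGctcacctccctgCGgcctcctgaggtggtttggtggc
HDAC3: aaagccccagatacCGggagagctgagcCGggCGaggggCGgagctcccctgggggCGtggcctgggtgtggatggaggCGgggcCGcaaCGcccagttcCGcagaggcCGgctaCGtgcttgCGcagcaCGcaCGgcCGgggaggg
HDAC8: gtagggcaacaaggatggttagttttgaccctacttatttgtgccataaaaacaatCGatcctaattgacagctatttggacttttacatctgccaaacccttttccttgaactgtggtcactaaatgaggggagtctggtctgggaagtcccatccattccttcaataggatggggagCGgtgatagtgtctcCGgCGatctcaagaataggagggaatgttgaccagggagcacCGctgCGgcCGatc
The HDAC1, HDAC2 and HDAC3 stretches lay wholly under a peak, and 0 of the 250 bases of HDAC8 did. The HDAC8 sequence is also the one with the fewest CpG.

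All 8 genes had at least 1 peak within 1000 bp of an end. Of all 19866 protein-coding genes, 59.1% had one. The 8 genes were taken by name with earlier results of these data known, so this difference was not tested. In each of the 8 genes a peak lay at the 5′ end, compared with 59.5% of the 15843 protein-coding genes whose strand the reference table gives. The strongest 5′ peaks were those of RCOR1 (10.6-fold) and HDAC2 (9.97-fold), and the weakest was that of HDAC8 (3.63-fold). The remaining 5 genes lay between 5.68-fold and 7.16-fold. The 4 deacetylase genes, with a median of 5.98, spanned nearly the whole range of the 8. Among the 9431 genes with a peak at the 5′ end the median was 5.59-fold, with quartiles 4.39 and 7.10.

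**Figure D1:**
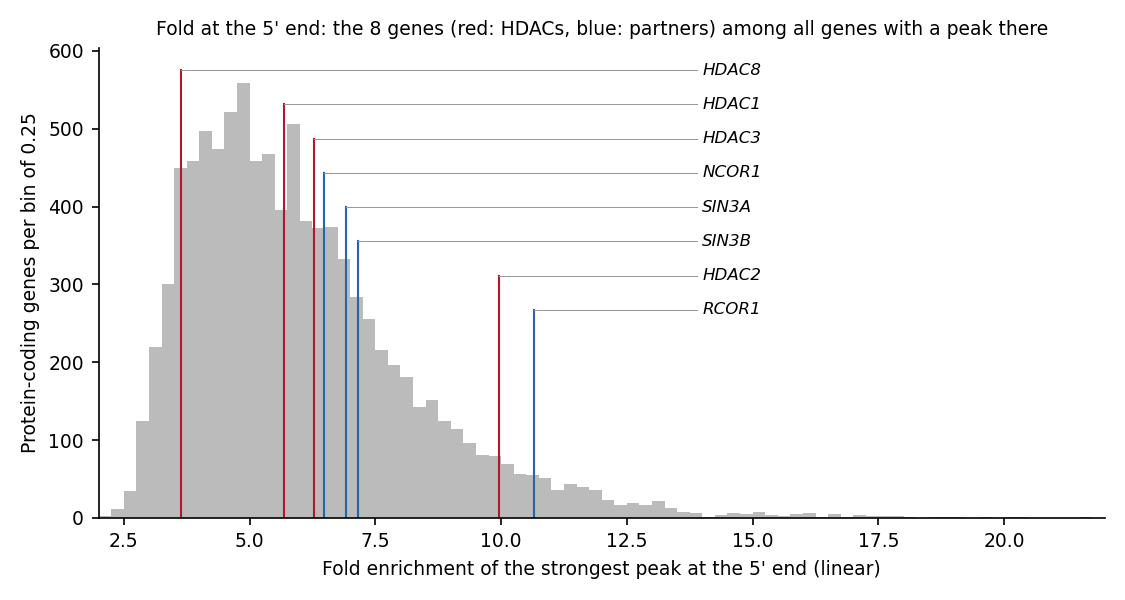
Histogram of the fold enrichment of the strongest 5′-end peak in 9431 protein-coding genes (grey, linear axis), with the 4 HDAC genes as red lines and the 4 partner genes as blue lines. HDAC2 at 9.97 and RCOR1 at 10.6 stand in the upper tail, HDAC8 at 3.63 in the lower part, and the other genes near or above the median of 5.59.

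HDAC1 encodes a catalytic subunit of the SIN3, NuRD and CoREST complexes. Its 5′ peak (NCBI gene 3065, chromosome 1, 32291338 to 32292723) was 1386 bp wide with 5.68-fold and a -log10 q of 17.2. It reached 745 bp upstream of the start and 640 bp into the gene, the most even placing of the 7 covered starts. Of genes with a 5′ peak, 51.6% had a lower fold, so HDAC1 stood at the middle of marked genes. No peak lay in its body of 41544 bp or at its 3′ end.

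HDAC2, the close paralog of HDAC1 in the same complexes, had a 5′ peak (NCBI gene 3066, chromosome 6, 113969997 to 113971770) of 1774 bp, 9.97-fold and a -log10 q of 42.1. A lower fold was found at 93.9% of genes with a 5′ peak. It reached 622 bp upstream and 1151 bp into the gene. The whole peak also lay inside HDAC2-AS2, a long noncoding gene on the opposite strand whose start is within 1000 bp of it, and ChIP reads carry no strand by which the peak could be given to either gene. The pair of paralogs thus differed in peak fold. Neither had a peak in its body or at its 3′ end, which most genes also lacked. A body peak was found in 17.7% of protein-coding genes up to 100000 bp, and a 3′ peak in 7.62% of those with a listed strand.

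HDAC3 is the catalytic subunit of the NCoR complex. Its 5′ peak (NCBI gene 8841, chromosome 5, 141636443 to 141638110) had 6.29-fold over 1668 bp and a -log10 q of 16.0. It lay mostly outside HDAC3, reaching 1261 bp upstream and 406 bp into the gene. The upstream part runs over the start of RELL2, so this 1 peak counts for both genes of the divergent pair. Of the genes whose start is covered by a peak, 89.5% had a peak reaching further into the gene than that of HDAC3.

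HDAC8 was the gene with the lowest fold and the one whose start no peak covered. A peak of 548 bp and 3.63-fold (NCBI gene 55869, chromosome X, 72572235 to 72572782, -log10 q of 4.49) began 61 bp inside the gene. A second, of 336 bp and 3.48-fold (72573253 to 72573588, -log10 q of 3.04), ended 410 bp before the start. The 470 bp between them, which hold the start, lay under no peak. Of the 9431 genes with a 5′ peak, 81.4% had their start covered and 1.89% had an uncovered start with a peak on each side, as HDAC8 had. Both peaks fall under a -log10 q of 5, and at that threshold HDAC8 had no peak at an end and 7 of the 8 genes did, compared with 52.4% of protein-coding genes. The fold at the 5′ end was lower than that of HDAC8 in 9.72% of genes with such a peak.

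NCOR1 encodes the scaffold that activates HDAC3. Its 5′ peak (NCBI gene 9611, chromosome 17, 16214833 to 16216512) had 6.48-fold over 1680 bp and a -log10 q of 22.2. It reached 978 bp upstream and 701 bp into the gene, and came within 1000 bp of the start of PIGL, the divergent neighbour. Both the fold and the width were above those of about the same share of marked genes, 65.7% and 63.9%. The reference table lists a further NCOR1 start 20895 bp inside the gene, and no peak lay within 1000 bp of it.

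SIN3A, a scaffold that brings HDAC1 and HDAC2 to DNA-bound repressors, had the widest 5′ peak of the 8 (NCBI gene 25942, chromosome 15, 75452243 to 75456518), 4276 bp with 6.92-fold and a -log10 q of 16.9. It reached 3572 bp into the gene and 703 bp upstream. Only 1.71% of genes with a covered start had a peak reaching further inward, and 96.6% of genes with a 5′ peak had a narrower one. A second peak of 1217 bp and 5.68-fold (75450477 to 75451693) followed in the body, from 4122 to 5338 bp inside the gene. A second listed start of SIN3A, 4125 bp inside the gene, lies at the edge of that body peak.

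SIN3B, the paralogous scaffold, had a 5′ peak of about the same fold in a much narrower interval (NCBI gene 23309, chromosome 19, 16829330 to 16829964). It had 7.16-fold over 635 bp and a -log10 q of 19.2, and 11.6% of genes with a 5′ peak had a narrower one. It reached 68 bp upstream of the gene's start and 566 bp inward, and 93.1% of genes with a covered start had a peak reaching further upstream. The start that the promoter table lists for SIN3B lies 33876 bp inside the gene and had no peak within 1000 bp, so the mark in this list lay at the outer end of the gene only. Because fold is averaged over a broad peak, the folds of SIN3A and SIN3B describe intervals of very different width.

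RCOR1 encodes CoREST, which joins HDAC1 or HDAC2 to the demethylase KDM1A. Its 5′ peak (NCBI gene 23186, chromosome 14, 102590722 to 102593815) was the strongest of the 8, with 10.6-fold over 3094 bp and a -log10 q of 57.6. It reached 1927 bp upstream and 1166 bp into the gene. A lower fold was found at 95.6% and a narrower peak at 92.2% of genes with a 5′ peak. RCOR1 was thus high in both measures, whereas HDAC2 was high in fold (93.9%) and nearer the middle in width (67.8%).

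**Figure D2:**
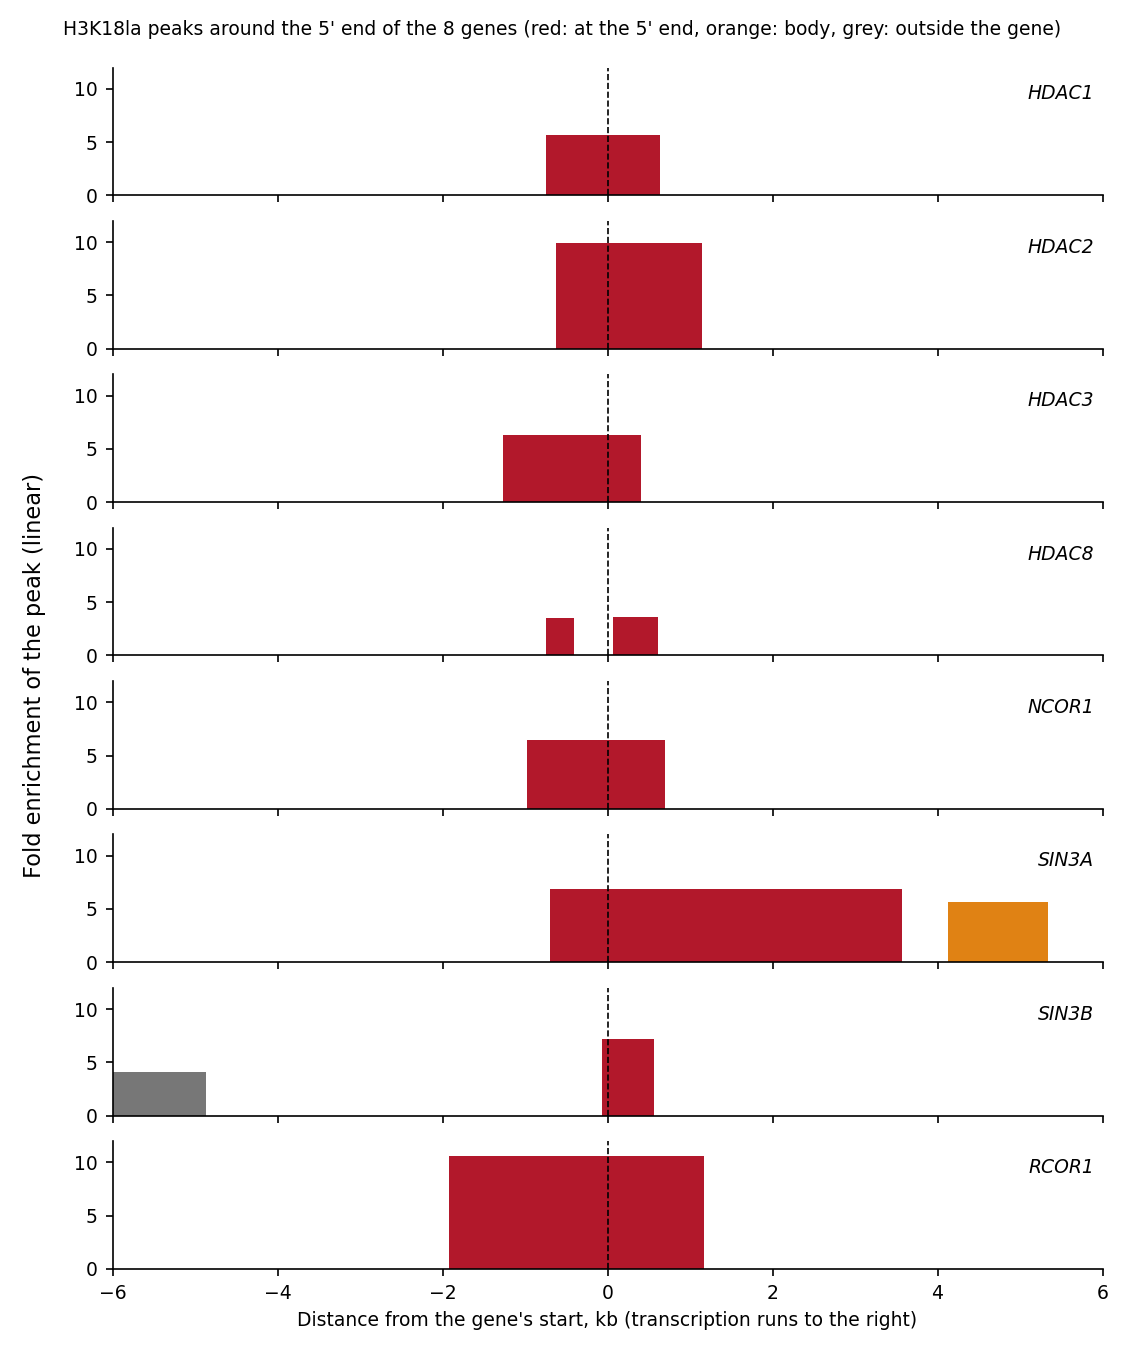
Peaks within 6 kb of the start of each gene, drawn from their listed edges, with height as fold enrichment (linear) and transcription to the right of the dashed line at the start. The start lies inside a peak in 7 genes, the 2 low HDAC8 peaks stand on either side of it, and the SIN3A peak extends 3572 bp into the gene with a body peak (orange) beyond.

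Across the 7 genes with a covered start, the peak reached a median of 745 bp upstream and 701 bp into the gene. Over all 7674 genes with a covered start these medians were 662 and 794 bp. The range among the 7 was 68 to 1927 bp upstream and 406 to 3572 bp inward. HDAC1, HDAC2 and NCOR1 lay near the bulk of genes, RCOR1 and HDAC3 reached further upstream, and SIN3A reached further inward.

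**Figure D3:**
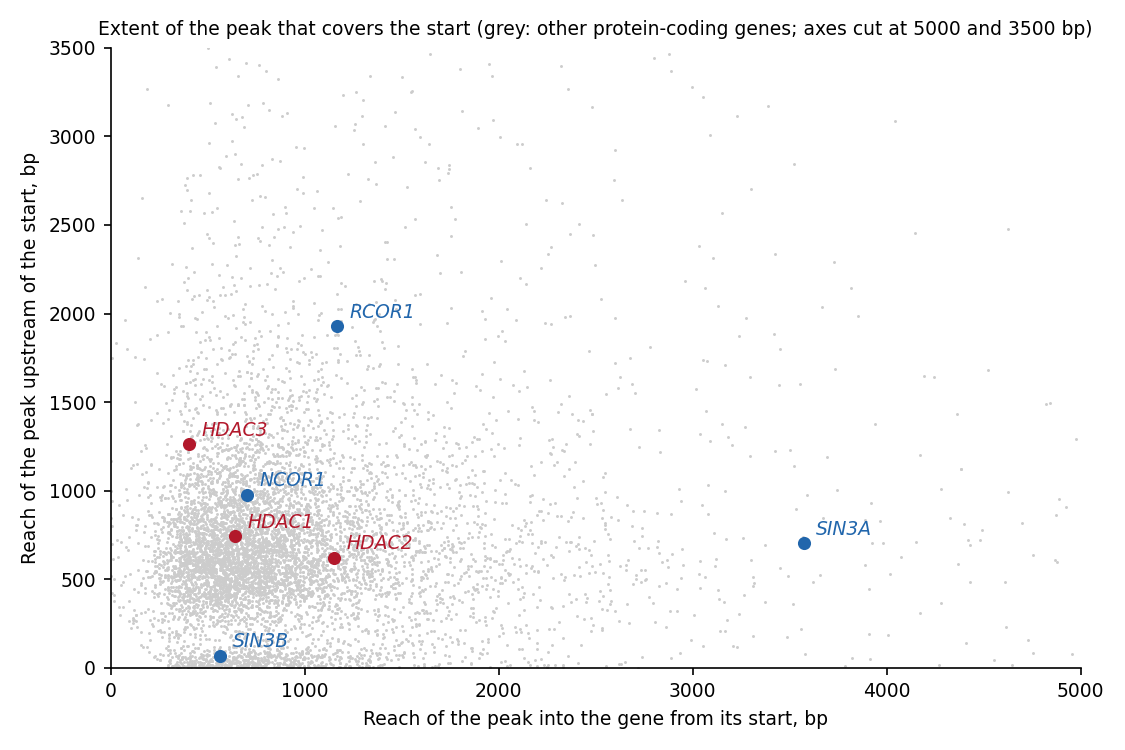
Reach of the start-covering peak into the gene (x axis, bp) against its reach upstream (y axis, bp), with the HDAC genes in red, the partner genes in blue and other protein-coding genes in grey. SIN3A stands apart at 3572 bp inward, RCOR1 at 1927 bp upstream and SIN3B at 68 bp upstream, and HDAC8 is not drawn because no peak covers its start.

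Of the 41 peaks of the 8 genes, 9 lay at a 5′ end, 2 at a 3′ end, 5 in a body and 25 outside the genes. At the 3′ end, NCOR1 and SIN3A had 1 peak each, and the other 6 genes had none, against 7.62% of genes with a listed strand. The NCOR1 peak (3.44-fold, -log10 q of 3.85, 16027332 to 16028804) lay 353 bp beyond the gene's end. It was wholly inside TTC19, a respiratory complex III assembly gene that overlaps NCOR1. The SIN3A peak (5.59-fold, -log10 q of 12.9, 75368025 to 75369042) lay 337 bp beyond its end, at the start of the mannosidase gene MAN2C1. Neither peak overlapped the gene itself.

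Inside the genes, outside the windows at the ends, 3 of the 8 had a peak, HDAC8, SIN3A and RCOR1, compared with 24.8% of protein-coding genes. Of genes longer than 100000 bp, 59.7% had a body peak, and of shorter genes 17.7%. Of the 3 members over that length, HDAC8 (243328 bp) and RCOR1 (137913 bp) had 2 each and NCOR1 (186378 bp) had none. The HDAC8 body peaks had 3.36-fold and 3.44-fold, with -log10 q of only 2.36 and 2.59, and began 17890 and 45633 bp inside the gene. Those of RCOR1 had 3.43-fold and 2.75-fold, with -log10 q of 6.85 and 1.81, and began 62186 and 82725 bp inside. All 4 were below the median fold of the list, 4.36, and the SIN3A body peak of 5.68-fold was above it.

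Outside the genes, 25 peaks lay within 50000 bp, and each of the 8 genes had at least 1, as did 70.3% of protein-coding genes. HDAC3 had 5, HDAC1, HDAC2 and SIN3B had 4 each, HDAC8 had 3, SIN3A and RCOR1 had 2 each and NCOR1 had 1, against a median of 1 (quartiles 0 and 3) over protein-coding genes. Of these 25 peaks, 10 lay within 1000 bp of the start of a neighbouring coding gene. The same share over the surrounding peaks of all genes was not computed, so the 10 cannot be called many or few. The median of the 25 was 4.44-fold, lower than the 6.70-fold median of the strongest 5′ peaks of the 8 genes.

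In 4 genes at least 1 surrounding peak was stronger than the gene's own. The same share over all marked genes was not computed, and the 3.63-fold of HDAC8 was below the median of all peaks, 4.36. Next to HDAC1, a peak of 10.1-fold (32335048 to 32336481) lay 1422 bp beyond the 3′ end, just outside the 1000 bp window, at the start of MARCKSL1, an actin-regulating MARCKS relative. Another of 9.03-fold (32240113 to 32242112) lay 49971 bp upstream, just inside the distance limit. Below HDAC3, 1851 bp beyond its 3′ end, the start of the formin gene DIAPH1 had 7.20-fold (141617817 to 141619030). Beyond SIN3A, a peak at a start of the DNA glycosylase gene NEIL1 had 7.55-fold (75347632 to 75348564). At HDAC8, the peak of 4.82-fold lay 47453 bp upstream inside PHKA1, and that of 4.06-fold lay 21899 bp downstream at a start of CITED1. Both were above the 3.63-fold of the stronger peak at the 5′ end of HDAC8.

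HDAC2 and RCOR1, the pair of genes with the strongest starts, also had strong peaks further out. This was not particular to them, since HDAC1 had surrounding peaks of 10.1-fold and 9.03-fold. Upstream of HDAC2, 23999 bp from its start, a peak of 3794 bp and 9.12-fold (113995147 to 113998940) lay inside HDAC2-AS2 with no coding gene end within 1000 bp. The 2 further peaks inside that noncoding gene within 50000 bp of HDAC2 had 3.10-fold and 4.33-fold. Beyond RCOR1, 45099 bp past its 3′ end, the start of TRAF3, a signalling adaptor of TNF receptors, had 10.5-fold over 3068 bp (102775660 to 102778727). Upstream, 39294 bp from RCOR1, a peak of 7.15-fold lay inside the noncoding gene LINC02323. The 4 peaks around SIN3B ranged from 3.28-fold to 4.13-fold, all below its own 7.16-fold, and the strongest lay 4866 bp upstream with no gene end within 1000 bp.

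**Figure D4:**
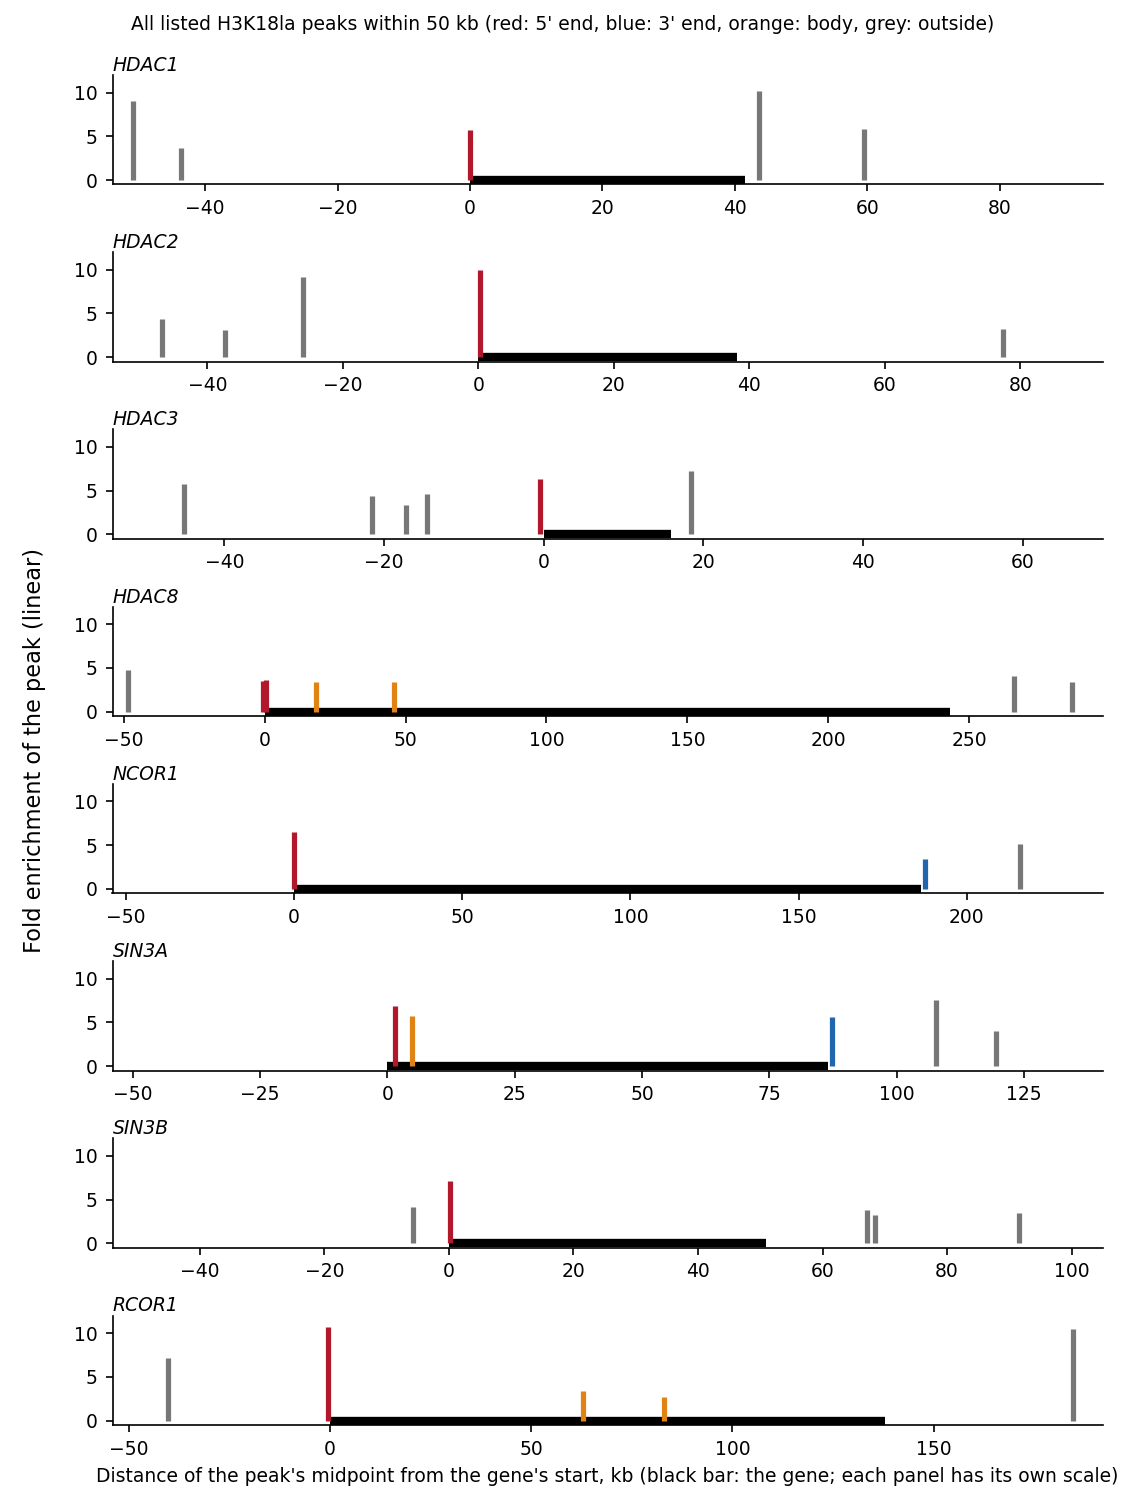
All 41 listed peaks of the 8 genes by the distance of their midpoint from the start (kb, each panel on its own scale) and fold enrichment (linear), with the gene as a black bar. The bodies are nearly empty between the red 5′ peaks and the grey peaks outside, and the grey bar next to the 3′ end of HDAC1 (10.1-fold) is taller than the gene's own 5′ peak (5.68-fold).

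The start sequences differed in CpG count, a feature not used to choose the genes. In the 250 bp before the start, HDAC1 had 21 CpG, HDAC2 18, HDAC3 22, NCOR1 28, SIN3A 21 and RCOR1 30. HDAC8 had 7, and 48% of its bases were G or C, against 62 to 76.4% in the other 6. SIN3B was left out because its listed start is not the outer end of the gene. Over 13820 coding genes with a listed start at that end the median was 17 CpG, with 22 at the 8429 genes that had a 5′ peak and 5 at the 5391 that had none. Of the genes with a 5′ peak, 5.68% had fewer CpG than HDAC8. RCOR1 had the most CpG of the 7 and the highest fold, yet HDAC2, second in fold, had fewer than HDAC1 and HDAC3.

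Motifs were searched on both strands in the same windows. The GC box GGGCGG, the core bound by SP factors, had 3 matches before HDAC1, of which 2 share a base, and 5 before RCOR1. SIN3A and HDAC3 had 1 match each, in HDAC3 within the 147 bp shown above. It was not found before HDAC2, HDAC8 or NCOR1. Of all 13820 windows 56% held it (49.5% in windows of 147 bp), with 70.9% at genes with a 5′ peak and 32.8% at those without. The CCAAT box CCAAT had 1 match each in HDAC1, SIN3A and RCOR1 (35.2% of windows). The ETS core CCGGAAG had 1 match in NCOR1 (12.1%) and TATAAA 1 in SIN3A (9.63%), and the E-box CACGTG had none in the 7 (7.87%). None of the 5 motifs was in the windows of HDAC2 and HDAC8, the deacetylase genes with the highest and the lowest fold. The share of all windows that hold none of the 5 was not computed, so this shared absence cannot be called rare. A match describes letters only.

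Other subunits of the complexes were taken from further lists. Of 14 further SIN3 complex genes, 14 had a peak at an end (59.1% of protein-coding genes did), with a median of 6.70-fold. At the 5′ end, 12 of the 13 with a listed strand had one. RBBP7, a histone-binding chaperone, had 11.3-fold and SINHCAF 9.18-fold. In the NCoR list 2 of 3 had a peak at an end, the WD-repeat subunit TBL1X with 7.10-fold and GPS2 with 4.80-fold in a peak also at NEURL4. TBL1XR1, the paralog of TBL1X, had none at an end and a peak of 15.2-fold in its body. In the CoREST list 6 of 7 had one, with HMG20B at 9.24-fold and PHF21A at 8.19-fold. RCOR2, the paralog of RCOR1, had none at an end and 8.62-fold in its body. Further starts inside the genes of these lists were not examined, so whether a body peak lies at such a start is not known. For all genes with a peak at an end the median was 5.66-fold.

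The NuRD list, the remodelling complex that also carries HDAC1 and HDAC2, had a peak at an end in 10 of 11 genes, with a median of 11.1-fold among those 10. The methyl-CpG binding gene MBD2 had 17.2-fold and CDK2AP1 14.1-fold, and CHD5 had no peak at an end and 3.93-fold in its body. In the MiDAC list 3 of 3 had one, with TRERF1 at 7.45-fold, in a peak also at LOC124900214, and DNTTIP1 at 7.42-fold, in a peak also at UBE2C. At the 5′ end, 2 of these 3 had a peak. Over all 8 further lists, 52 of 55 genes (94.5%) had a peak at an end, against the 59.1% of protein-coding genes given above. The 8 lists also hold scaffolds, other zinc-dependent deacetylases and cohesin genes, which are given further below. Genes of the lists were chosen with earlier results of these data known, so the difference was not tested, and the figures describe 1 library.

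**Figure D5:**
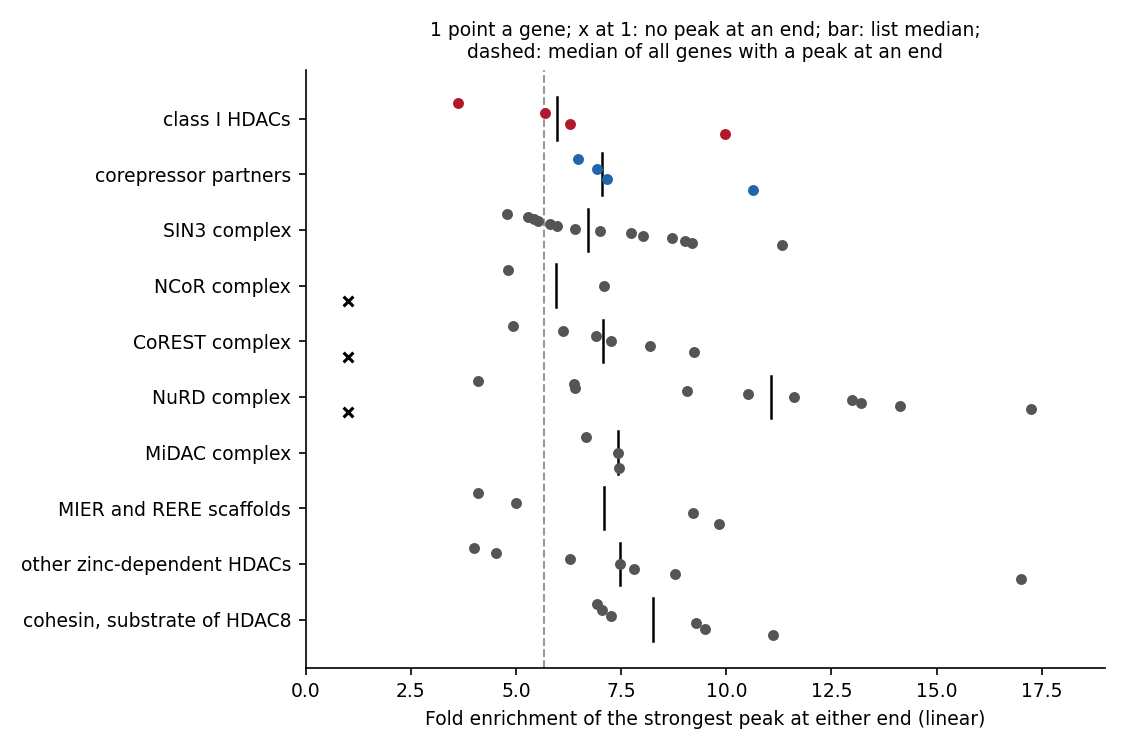
Fold enrichment of the strongest peak at either end (linear) for every gene of the 4 deacetylases (red), the 4 partners (blue) and 8 further lists (grey), with list medians of marked genes as black bars and genes without such a peak as crosses. The class I HDACs spread from 3.63 to 9.97, and the NuRD median of 11.1 stands furthest right of the dashed median of all marked genes, 5.66.

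For each deacetylase gene the nearest coding genes were found over 4 standardised values of this 1 library, the fold and width of the strongest end peak and the numbers of peaks in the body and within 50000 bp. Among 11744 genes with an end peak, HDAC1 was nearest to ZNF251 (5.79-fold, 1361 bp) and RPL10A (5.83-fold, 1370 bp). HDAC2 was nearest to COL6A2 (9.85-fold, 1768 bp) and EIF1 (10.1-fold, 1783 bp). HDAC3 was nearest to RELL2, with which it shares the peak, and to CISD3 (6.17-fold, 1718 bp). HDAC8 was nearest to ARHGAP22 (3.68-fold, 570 bp) and WDR35 (3.60-fold, 692 bp), at distances of 0.45 and 0.58 standardised units, larger than the 0.08 or less of the other 3.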

How the data were processed

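H3K18la was measured by ChIP-seq in 1 library of H1299 cells. Per the submitters' processing notes, the tools were bcl2fastq 2.17, cutadapt 1.18, Trimmomatic 0.38, Bowtie2 2.3.4.1, Picard, MACS2 (2.1.2 and 2.1.0 listed) and ChIPseeker, on hg38, with settings not given in the sources used here. The deposited fold enrichment is a ratio to the caller's background, averaged over the peak. The authors deposited significance as -log10 p and -log10 q (largest q 0.0472) and a score derived from it.

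RefSeq coordinates (GRCh38.p14) were used for 19866 protein-coding genes on placed chromosomes. Strand, known for 15843, and start sequences came from RefSeq promoter records. Peaks overlapping a window of 1000 bp around an end by 1 bp counted as at that end, otherwise as body or surrounding. Exons and introns were not assigned. Named genes were the 8 members, genes sharing their peaks or at whose ends surrounding peaks lay, the 2 nearest genes of each HDAC, and in each further list the 2 of highest fold and those without an end peak. Neighbours that contain a peak, SMC1A, SMC3, HDAC6 and HDAC9 were named after their values were seen. The members and lists were chosen with earlier results of these data known. Overlap code was tested on simulated data, equalling brute force in 500 of 500 genes (Python 3.11.15, pandas 2.3.3). 1 gene of the further lists is not reported here. Other windows, thresholds and distances were tried.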

Additional observations from a re-analysis of the deposited data

How the results depend on the processing

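With windows of 500 or 3000 bp, the midpoint rule, or the 5′ end alone, 8 of the 8 genes kept a peak at an end. At a -log10 q of at least 5, or with fold at or above the median of all peaks, 7 did, HDAC8 being the gene lost in both. The share of protein-coding genes was 59.1% with the window of 1000 bp and 52.4% at that q. At the 5′ end alone it was 59.5% of genes with a listed strand. For the other settings, and for body and surrounding peaks at any changed setting, the share was not computed, so no contrast can be drawn there. The median fold at an end, 6.70, was 7.18 with the window of 3000 bp, where the peaks at MARCKSL1 and DIAPH1 counted for HDAC1 (10.1-fold) and HDAC3 (7.20-fold). It was 6.38 under the midpoint rule, by which the wide SIN3A peak no longer counted and the 3′ peak of 5.59-fold took its place. It was 6.92 both at a -log10 q of at least 5 and with fold at or above the median of all peaks. Members with a body peak numbered 1 instead of 3 with fold at or above that median. Surrounding peaks numbered 13 instead of 25 with that fold, 17 at that q, 3 within 10000 bp and 48 within 100000 bp. Over the further lists, the count of 52 ranged from 45 (5′ end only, 48 genes with a listed strand) to 53. No paired analysis was possible because each group has 1 library. Depth is unknown, so a missing peak is a gap in this list and not a measured absence.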

Other observations

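Of 6 cohesin genes, listed because cohesin is the best known HDAC8 substrate, 6 had a peak at an end, against 59.1% of protein-coding genes. The values ran from 6.93-fold at SMC1A to 11.1-fold at STAG2, with 9.50-fold at RAD21 and 7.05-fold at SMC3, which encodes the subunit that HDAC8 deacetylates. Each of the 6 was higher than the 3.63-fold of HDAC8 itself. Among genes with a 5′ peak only 9.72% had a lower fold than HDAC8, so most marked genes exceeded it. The cohesin and HDAC8 values are peaks of 1 library, and the difference was not tested. SMC1A and SMC3 were singled out after their values were seen.

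The other zinc-dependent deacetylase genes had a peak at an end in 7 of 7 cases, against 59.1% of protein-coding genes. The folds of these 7 ran from 3.997-fold at HDAC9 to 17.0-fold at HDAC7, with 8.78-fold at HDAC5. The HDAC9 peak had a -log10 q of 4.83, so HDAC9, like HDAC8, had no peak at an end at the threshold of 5. HDAC6 had 4.53-fold, and it and HDAC9 were the deacetylase genes nearest to HDAC8 in fold. HDAC9 had 7 body peaks of up to 6.09-fold, above the fold at its ends, whereas the HDAC8 body peaks were below the fold at its 5′ end. HDAC6 and HDAC9 were singled out after their values were seen. The MIER and RERE scaffolds, which also recruit HDAC1 and HDAC2, had a peak at an end in 4 of 4 cases, against the same 59.1%. The strongest were those of MIER3 (9.82-fold) and MIER2 (9.20-fold).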
